A study of Mus musculus with 2 samples.

Results

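The regions described here are 10021 autosomal tiles of 2500 bp that lie in megabase windows where RRBS measured few tiles. RRBS, reduced representation bisulfite sequencing, reads cytosine methylation on restriction fragments and favours CpG-rich sequence. A tile was tested when at least 3 CpG positions had a row of 5 or more calls in both libraries, and 158677 autosomal tiles met this, in 2413 windows of 1 Mb. Windows with 5 to 25 tested tiles are called tile-poor. They numbered 601 (24.9% of windows) and held 6.32% of autosomal tested tiles. The 555 windows with 100 or more tested tiles, here tile-rich, held 77158 tiles and served as the comparison. The choice used the number of measured CpGs and their depth, not their methylation.

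The cells were E14 mouse embryonic stem cells (ESCs) of the 129/Ola background that carry the Rex1-dGFP knockin, a GFP reporter in the *Rex1* locus, and both groups share this line and culture on gelatin with LIF and serum. They were sorted into *Rex1*-high cells, the naive-like state, and *Rex1*-low cells, and each state was measured in 1 library. The *Rex1*-high library held 60718476 calls and the *Rex1*-low library 61024229. With 1 library per state no replicate spread is known, so each test below compares libraries and not states, and intervals cover counting error only. The tests and intervals count every call as independent. Calls at neighbouring CpGs can come from the same read, so p-values can be too small and intervals too narrow.

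In mammalian genomes, long stretches with few genes tend to be AT-rich and poor in CpG islands, and they often replicate late and lie at the nuclear lamina. In many differentiated and cultured cells such stretches form partially methylated domains, in which isolated CpGs lose methylation over megabases while gene-rich neighbours keep it. DNA methyltransferases that act de novo and the maintenance enzyme set the level of isolated CpGs, whereas CpG islands usually stay unmethylated. The question put to the data was whether tile-poor windows differ from tile-rich windows in level, in the difference between the *Rex1* states, or in large-scale domains.

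The windows were first described by what they hold. A tile-poor window had a median of 668 CpG positions listed at any depth in either library and of 81 tiles with 3 or more listed positions. The same medians in tile-rich windows were 2772 positions and 244 tiles. Of the tiles listed in this way, 20.5% reached the required depth in both libraries in tile-poor windows, and 55.5% did in tile-rich windows. The number of tested tiles thus followed both the listed CpGs and their coverage, and how far each contributes to the results was not tested. The submitters' processing notes name the mm9 build, for which no gene annotation was used, so whether these windows are poor in genes was not examined, and they are named here by their tiles. The nearest other tested tile lay at a median distance of 17.5 kb from a tile of tile-poor windows, and 36.9% had none within 25 kb. In tile-rich windows the next tested tile was usually the adjacent one, in 67.0% of tiles, against 16.4% in tile-poor windows.

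Tiles of tile-poor windows also held fewer measured CpGs. Their median was 4 covered CpGs, with a range from 3 to 174, and 42.9% had exactly 3, against 22.0% in tile-rich windows. Tiles with 20 or more covered CpGs, the range typical of CpG islands, numbered 327. The median tile rested on 83 calls in *Rex1*-high cells and 60 in *Rex1*-low cells, and the 95% Wilson interval of its summed calls had a median half-width of 9.99 and 7.69 percentage points. In tile-rich windows the median tile had 149 and 123 calls. Because tiles with more CpGs are less methylated, tile-rich tiles were weighted so that each of 7 classes of covered CpG number had the same share as in tile-poor windows. After this weighting the median tile-rich tile still had more calls, 101 and 81.

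Tile-poor windows were mostly intermediately methylated in *Rex1*-high cells and highly methylated in *Rex1*-low cells. The level of a tile is the mean over its CpGs of the percentage of methylated calls. The median tile was at 58.0% in *Rex1*-high cells, with quartiles of 48.02% and 66.5%, and at 87.7% in *Rex1*-low cells, with quartiles of 78.0% and 93.0%. The median change, *Rex1*-low minus *Rex1*-high, was 26.1 points, with a standard deviation of 12.4 points over tiles. The level was higher in *Rex1*-low cells in 9802 of the 10021 tiles (97.8%). This share was near that of all tested tiles, 96.8%, and of tile-rich tiles weighted to the same CpG numbers, 97.5%. By the mean levels of tiles in tile-poor windows, the unmethylated share was 44.3% in *Rex1*-high and 18.8% in *Rex1*-low cells.

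**Figure D1:**
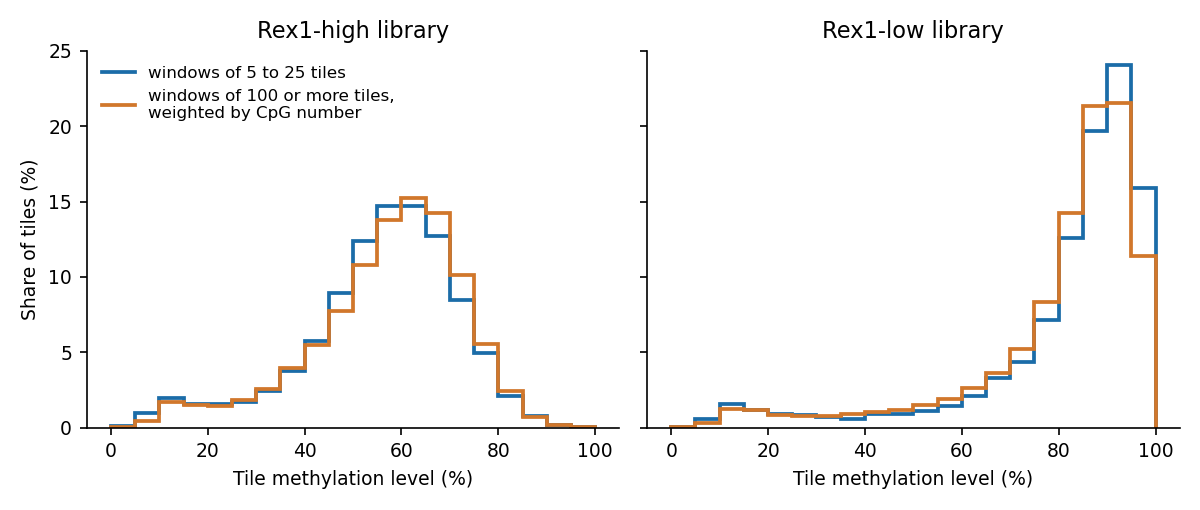
Distribution of tile methylation levels (x axis, in 5-point bins) as a share of tiles (y axis) in *Rex1*-high (left) and *Rex1*-low cells (right), for windows of 5 to 25 tiles (blue) and windows of 100 or more tiles weighted to the same CpG numbers (orange). In tile-poor windows the fullest bin is 60% to 65% with 14.7% of tiles in *Rex1*-high cells and 90% to 95% with 24.04% in *Rex1*-low cells, and the tile-rich curves lie close to both.

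A tile was called when its summed calls differed between the libraries (Fisher's exact test, two-sided, p adjusted over all 162595 tested tiles by Benjamini and Hochberg's method) and its level by at least 10 points. By this rule 7815 tiles of tile-poor windows (78.0%) rose in *Rex1*-low cells, against 75.5% of all tested tiles. In tile-rich windows of like CpG number the share was 78.6%, so the share of rising tiles was near the background in both kinds of window. The share in tile-poor minus that in tile-rich windows was -0.62 points here. Other settings moved it to -2.82 points with at least 5 CpGs per tile and to -2.53 points with rows of at least 10 calls. With the deeper library thinned at every CpG to the calls of the other it was -2.26 points. It was 2.04 points when tiles were also weighted by *Rex1*-high calls per CpG and 5.71 points with a required change of 20 points. With that stricter requirement 66.7% of tiles in tile-poor windows rose, against 59.7% of all tested tiles.

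A fall was called for 4 tiles of tile-poor windows, 0.0399% of them, where 0.0326% of all tested tiles fell. A first one, at positions 61055001 to 61057500 of chromosome 16, was at 44.1% in *Rex1*-high and 22.4% in *Rex1*-low cells over 5 CpGs, and Fisher's exact test gave an adjusted p of 0.00862. Another, at 43575001 to 43577500 of chromosome 6, was at 25.3% and 7.05% over 4 CpGs (adjusted p = 0.00394, Fisher's exact test). When CpGs were kept as separate strata (Cochran-Mantel-Haenszel test), both were called too, with adjusted p of 0.00567 and 0.0038. That test called a fall for 4 tiles here, not all of them the same, and for 0.0517% of all tested tiles, and for rises it called 81.7% here and 78% of all tested tiles. The tiles at 61100001 to 61102500 of chromosome 3 and at 39300001 to 39302500 of chromosome 12 had a lower mean level, by -18.2 and -12.6 points. Their summed calls went the other way, from 71.7% to 88.0% and from 69.0% to 84.6%, because the mean weights CpGs equally and the sum weights them by depth, and the stratified test called neither, with adjusted p of 0.457 and 0.116. The 4 tiles were named after their values were seen. The count of falls depended on the settings. It was 10 with the median of CpG fractions as tile level and 1 with rows of at least 10 calls. With the deeper library thinned at every CpG to the calls of the other it was 0, so none of the 4 calls was kept there.

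Compared at like CpG number, tile-poor and tile-rich windows differed by a few points. The median level of tile-poor windows was lower by 1.54 points in *Rex1*-high cells, at 58.0% against 59.5%, and higher by 1.55 points in *Rex1*-low cells, at 87.7% against 86.1%. Their median change was larger by 2.46 points, at 26.1 against 23.7. They are differences between medians over many tiles of the same pair of libraries, for which no test over samples exists. In *Rex1*-high cells the tile-poor median was the lower one on all 19 autosomes, with differences from -0.02 points on chromosome 9 to -4.94 points on chromosome 12. In the *Rex1*-low library it was the higher one on 17, with chromosomes 12 and 13 as exceptions. The change was larger on 18 of the 19, by up to 4.08 points on chromosome 12, and on chromosome 13 it differed by -0.03 points. The size of these differences moved with the settings. The difference in *Rex1*-high cells ranged from -2.44 points with the median of CpG fractions as tile level to -0.77 points with tiles weighted by listed CpGs. In *Rex1*-low cells the excess was 0.51 points with rows of at least 10 calls, 0.73 points with the rows of a position summed first and 0.77 points with levels from summed calls. With rows of at least 10 calls the excess of the change was 1.15 points, with at least 5 CpGs per tile it was 0.992 points, and with the median of CpG fractions as tile level it was 4.36 points.

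The excess was found in tiles with few CpGs. In tiles of 3 covered CpGs the median change was 26.97 points in tile-poor and 23.4 points in tile-rich windows. For 4 CpGs the medians were 27.02 and 24.3 points, and for 5 to 6 CpGs 26.6 and 24.6 points. In tiles of 7 to 9 CpGs they were 25.5 and 24.8 points. From 10 covered CpGs on, the order was the opposite, with 22.1 against 23.5 points at 10 to 19 CpGs and 3.17 against 4.72 points at 20 to 39. Depth moved with the same contrast, and calls in *Rex1*-low cells divided by those in *Rex1*-high cells gave 0.745 in tile-poor and 0.828 in tile-rich windows for tiles of 3 CpGs. With weights on CpG number and on *Rex1*-high calls per CpG, which do not balance this ratio, the excess of the change was 2.38 points. With the deeper library thinned at every CpG to the calls of the other it was 1.94 points.

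**Figure D2:**
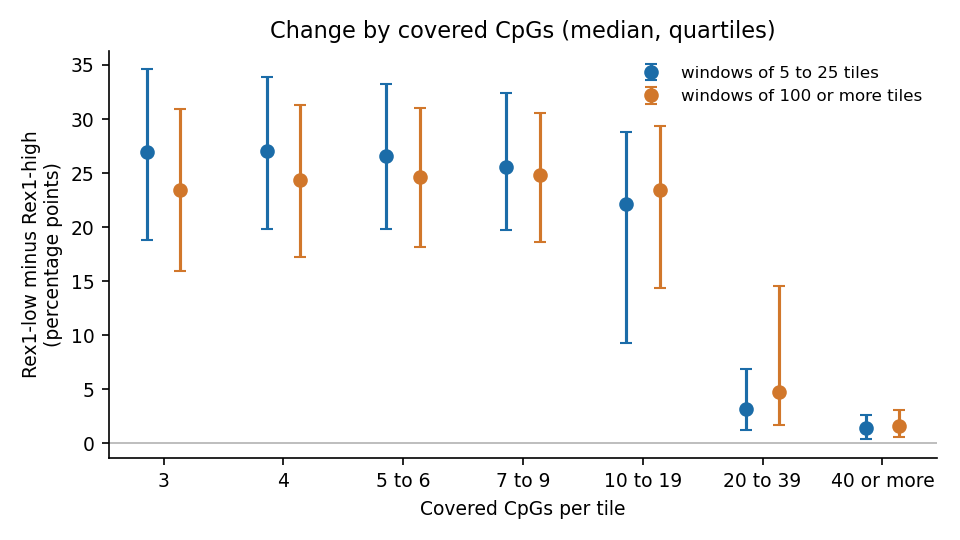
Change in tile methylation from the *Rex1*-high to the *Rex1*-low library in percentage points (y axis) by the number of covered CpGs per tile (x axis), for tile-poor (blue) and tile-rich windows (orange). Points are medians and bars run from the lower to the upper quartile over tiles, and the blue median lies above the orange one up to 9 CpGs and below it from 10 CpGs on.

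The starting level gave a similar picture. Tiles of tile-poor windows between 40% and 60% in *Rex1*-high cells, 4190 in number, had a median change of 32.5 points, against 30.0 points in weighted tile-rich windows. For the 4101 tiles between 60% and 80% the medians were 23.3 and 21.5 points. The 951 tiles between 20% and 40% reached a median of 60.6% in *Rex1*-low cells, and like tile-rich tiles reached 55.0%. Tiles under 20% hardly differed between the libraries, with a median change of 2.29 points in 467 tiles, of which 10.3% rose, and of 2.17 points in weighted tile-rich tiles, of which 10.2% rose. Because tiles with fewer calls have noisier levels, sorting by the *Rex1*-high level can move these medians, and by how much was not tested.

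Windows between the 2 sets formed a gradient in the change. With every class weighted to the CpG numbers of tile-poor windows, the median change was 25.1 points in windows of 26 to 49 tiles, 24.4 points in windows of 50 to 74 and 23.9 points in windows of 75 to 99, between the 26.1 and 23.7 points of the ends. The *Rex1*-high level did not follow this order, since its medians were 58.0%, 59.5%, 60.2%, 60.4% and 59.5% from the fewest to the most tiles. Windows of 24 to 25 tiles had medians of 59.0% and 87.5%, and windows of 26 to 27 tiles had 58.5% and 87.5%. At the lower border, windows of 5 to 6 tiles had 58.9% and 85.2%, whereas the 33 tiles in windows of 3 to 4 had 57.6% and 86.1%. The median change was 25.2 and 25.1 points inside and outside the border of 25 tiles, but 25.7 points in windows of 5 to 6 tiles and 21.4 points in windows of 3 to 4. The 47 tiles in all windows of fewer than 5 tiles had a median change of 20.4 points, unweighted, so the gradient did not continue below 5 tiles.

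**Figure D3:**
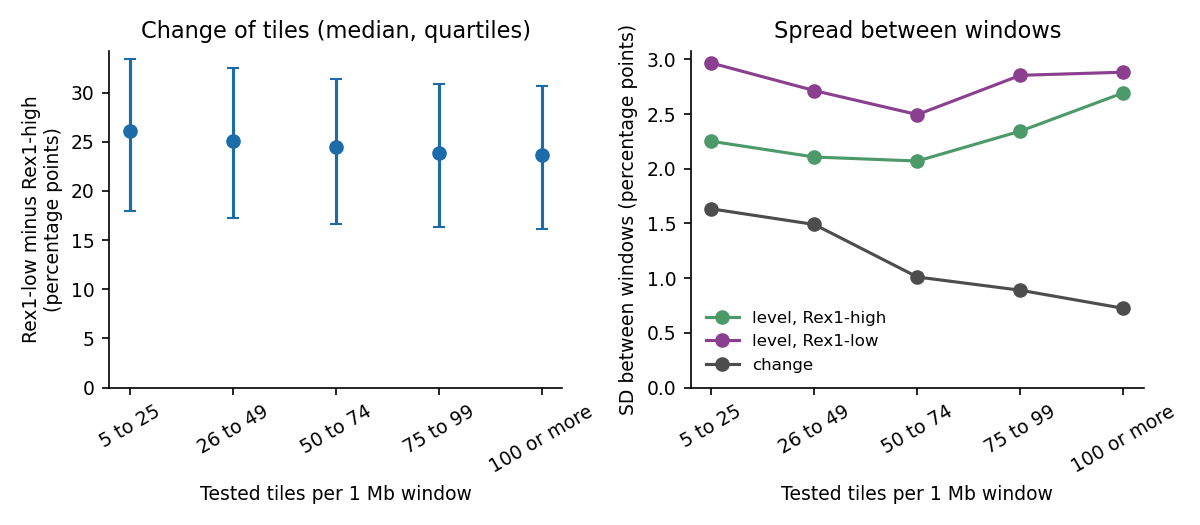
Left, median change of tiles in percentage points with quartiles (y axis) by the number of tested tiles per 1 Mb window (x axis), weighted to the CpG numbers of tile-poor windows. Right, standard deviation between windows in points, after removal of the spread between tiles of a window, for tiles of 3 to 9 CpGs, with the level in *Rex1*-high cells in green, the level in *Rex1*-low cells in purple and the change in grey, which falls from 1.63 to 0.724 points.

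CpG-dense tiles were the exception within tile-poor windows. The 327 tiles with 20 or more covered CpGs lay in 213 of the 601 windows, and their median level was 13.2% in *Rex1*-high cells and 14.6% in *Rex1*-low cells. Of these tiles, 233 (71.3%) were under 20% in both libraries, and in tile-rich windows 60.1% of CpG-dense tiles were. Only 31 dense tiles rose, or 9.48%, against 17.3% in tile-rich windows. Among the 277 dense tiles under 20% in *Rex1*-high cells 5 rose, and among the 50 at or above 20% 26 did. Over all tested tiles 75.5% rose. These 2 counts were not compared with tile-rich tiles of like CpG number and starting level. The rising dense tiles had a median level of 37.9% in *Rex1*-high and 58.1% in *Rex1*-low cells.

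The densest of these tiles show how little the low level moved. The tile at 17895001 to 17897500 of chromosome 13 held 174 covered CpGs and was at 9.98% in *Rex1*-high and 10.6% in *Rex1*-low cells, on 6175 and 9755 calls. At 133377501 to 133380000 of chromosome 2, 155 CpGs averaged 12.7% and 13.8%. At 82867501 to 82870000 of chromosome 9, 137 CpGs averaged 7.52% and 8.29%. The next most CpG-dense tiles, on chromosome 4 (28740001 to 28742500, 128 CpGs) and chromosome 10 (36855001 to 36857500, 122 CpGs), differed between the libraries by 1.71 and 0.27 points. None of these 5 tiles reached the 10 points required of a call. Surrounding tiles had like medians with and without a CpG-dense tile in the window. Tiles of 3 to 9 CpGs had a median change of 26.6 points in the 213 windows with a CpG-dense tile and of 26.9 points in the 388 windows without one.

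The tiles with the largest rises were picked by the change itself. Among the 372 rising tiles outside chromosome 18 with 10 or more CpGs and 100 or more calls per library, the largest rise was at 56002501 to 56005000 of chromosome 8, from 38.9% to 86.2% over 15 CpGs. There 165 of 426 calls were methylated in *Rex1*-high cells, with a 95% Wilson interval from 34.2% to 43.4%, and 275 of 343 in *Rex1*-low cells, with an interval from 75.6% to 84.05%. The adjusted p was 8.59e-30 in Fisher's exact test, for a tile chosen by its rise. This tile lay in the window next to the lowest one of chromosome 8 described further on. It was followed by rises of 46.8 points at 89715001 to 89717500 of chromosome 2 and of 44.8 points at 94627501 to 94630000 of chromosome 17. Rises of 44.7 points at 55055001 to 55057500 of chromosome 2 and of 44.5 points at 22295001 to 22297500 of chromosome 15 completed the 5 largest. All 5 stood between 38% and 50% in *Rex1*-high cells and above 86% in *Rex1*-low cells. A rise of this size can only start well below the maximum level, so the ranking itself limits these levels.

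At the other end, few CpG-rich tiles were already highly methylated in *Rex1*-high cells. None of the 494 tiles with 10 to 19 CpGs was at or above 80% in that library, and none of the 327 denser ones, whereas 312 of the 9200 tiles with 3 to 9 CpGs were. Among tiles of 10 or more CpGs with 100 or more calls per library, the highest was at 73185001 to 73187500 of chromosome 4, with 78.02%, and it rose to 96.3%. A tile of 20 CpGs at 12135001 to 12137500 of chromosome 9 was at 77.5% and rose to 91.7% (adjusted p = 4.85e-10, Fisher's exact test). It was the only one of the 5 highest tiles in the CpG range of islands.

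At the scale of whole windows, the median tile was higher in *Rex1*-low cells in all 601 tile-poor windows, and by at least 10 points in 598. In 425 windows every tested tile was higher, which held for 18 tile-rich windows with their median of 131 tiles. Window medians in *Rex1*-high cells had a 5th percentile of 48.7%, a median of 57.9% and a 95th percentile of 65.0%. In the *Rex1*-low library these values were 77.3%, 87.8% and 92.0%, and 562 windows (93.5%) were at or above 80%. Windows under 60% in *Rex1*-low cells, a level at which a partially methylated domain could be looked for, numbered 4 of the 601. In tile-rich windows 80.5% of the medians were at or above 80%, with 4 of the 555 under 60%. These medians were not matched for CpG number. Over tiles of 3 to 9 CpGs alone the order of these shares turned. Then 573 of 598 tile-poor windows (95.8%) and 545 of 555 tile-rich windows (98.2%) were at or above 80%. The middle of these window medians was still higher in tile-poor windows, at 88.3% against 86.3%, while the lowest was 27.3% against 73.2%.

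**Figure D4:**
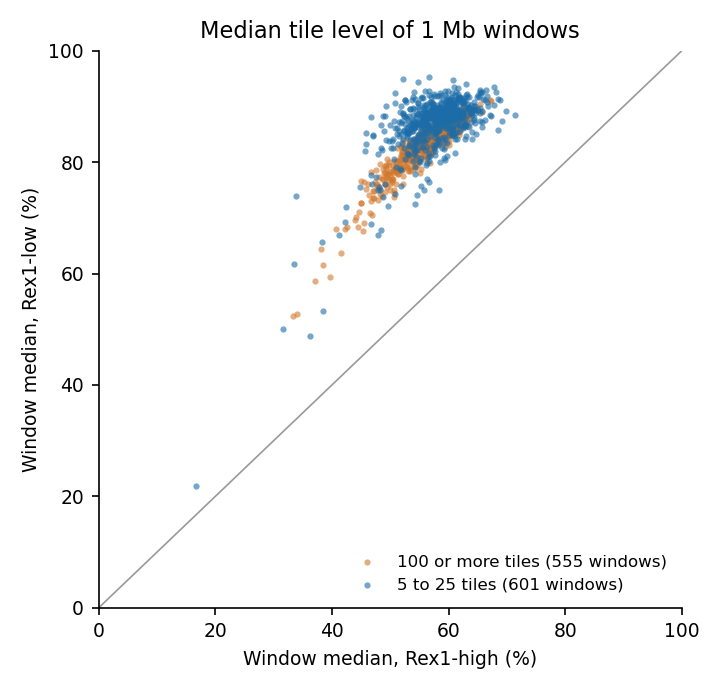
Median tile level of each 1 Mb window in *Rex1*-high (x axis) and *Rex1*-low cells (y axis), for 601 tile-poor (blue) and 555 tile-rich windows (orange), with the line of equality in grey. Every window lies above the line. A few windows of both sets stand apart at low levels, with 4 tile-poor and 4 tile-rich ones under 60% in *Rex1*-low cells. The lowest is tile-poor, at 16.7% and 21.8%.

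Windows with few tiles vary more by sampling alone, so the spread was divided into a part within and a part between windows for tiles of 3 to 9 CpGs. Within tile-poor windows the level had a standard deviation of 13.4 points in *Rex1*-high and 14.02 points in *Rex1*-low cells. The part between windows was 2.25 and 2.97 points, or 2.73% and 4.28% of the variance. In tile-rich windows it was 2.69 and 2.88 points, or 3.77% and 3.58%, so that it was larger there in *Rex1*-high cells and slightly smaller in *Rex1*-low cells. For the change it was 1.63 points, 1.91% of the variance, against 0.724 points and 0.453% in tile-rich windows. In both sets most of the spread lay within windows.

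Likeness between tiles was highest for adjacent ones. Tiles of 3 to 9 CpGs in tile-poor windows had a Pearson r of 0.184 in *Rex1*-high and 0.366 in *Rex1*-low cells when they were adjacent, over 578 pairs, and of 0.077 and 0.058 at 5 to 10 kb, over 1175 pairs. In tile-rich windows these values were 0.191 and 0.200 for adjacent tiles, and 0.125 and 0.104 at 5 to 10 kb. From 12.5 kb to 5 Mb, r of the level in tile-poor windows lay between 0.016 and 0.049 in either library. For the change it was 0.045 in adjacent tiles and at most 0.028 beyond. For medians of whole windows over the same kind of tile, adjacent tile-poor windows had r of 0.175 and 0.173 for the level and 0.070 for the change over 329 pairs, and adjacent tile-rich windows, whose medians rest on more tiles, had 0.437, 0.460 and 0.136 over 328 pairs. Over all tiles these values were 0.132, 0.141 and 0.087 in tile-poor windows and 0.559, 0.555 and 0.379 in tile-rich windows. Distance did not order the tile-poor windows, since over all tiles r was 0.024, 0.088 and -0.044 for 249 pairs 2 Mb apart and 0.152, 0.280 and 0.123 for 149 pairs 10 Mb apart. These values describe pairs that share libraries and base composition, and no p-value is given. Over all tiles of adjacent tile-poor windows, r of the *Rex1*-high level was -0.015 with rows of at least 10 calls, and r of the change was -0.010 in windows of 10 to 20 tiles. With the rows of a position summed first they were 0.214 and 0.197.

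Tile-poor windows often stood side by side. Merged over windows with fewer than 5 tiles, they formed 262 runs, of which 79 spanned 3 Mb or more and held 354 of the 601 windows. One of the 2 longest runs, at 70000001 to 81000000 of chromosome 4, spanned 11 Mb with 161 tiles. Its medians were 57.0% and 88.3%, with quartiles of the change at 18.3 and 33.0 points, and 122 of its tiles rose. A run of the same length at 14000001 to 25000000 of chromosome 15 had medians of 59.6% and 88.9% over 159 tiles, of which 137 rose. The run at 88000001 to 98000000 of chromosome 14 had 58.6% and 88.9% over 182 tiles, of which 145 rose. These were 75.8%, 86.2% and 79.7% of the tiles of the 3 runs, against 75.5% of all tested tiles, so that the first and the last were near the background. No tile fell in the 3 runs.

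Longer runs did not differ much from single windows. Tiles in runs of 1 window had a median change of 25.6 points, tiles in runs of 3 or more windows 26.4 points and tiles in the 30 runs of 5 or more windows 26.9 points. Across those 30 runs the medians ranged from 52.5% to 61.1% in *Rex1*-high and from 83.0% to 90.3% in *Rex1*-low cells. The border of a run was hardly visible in the level. In tiles of 3 to 9 CpGs, the last window outside a run of 3 or more had medians of 60.0% and 87.8% and the first window inside had 59.2% and 88.3%. The median change was 25.4 points just outside and 26.96 points just inside, and going further inward it was 26.7, 28.3, 27.1 and 25.5 points, over 121, 47, 18 and 8 windows, so that no steady trend into the runs was seen.

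**Figure D5:**
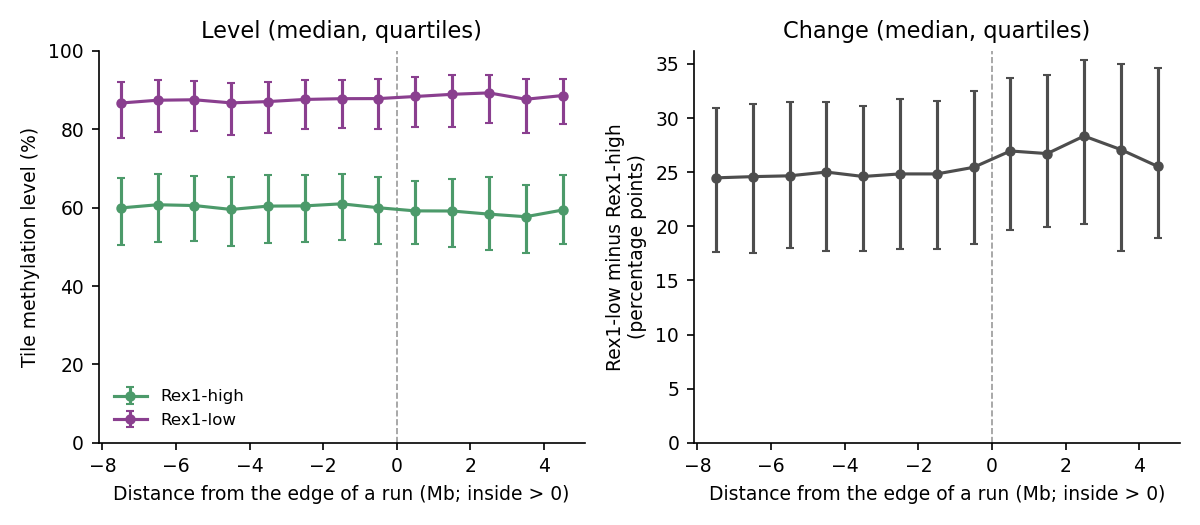
Median level (left, in %, *Rex1*-high in green and *Rex1*-low in purple) and change (right, in percentage points) of tiles with 3 to 9 CpGs by distance in Mb from the border of runs of 3 or more tile-poor windows, with bars from the lower to the upper quartile over tiles and positive distances inside the run. Distances reached by at least 8 windows are drawn, and the change is 24.5 points at the farthest distance outside and 26.96 points in the first window inside.

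Single windows showed larger contrasts. Among the 389 tile-poor windows outside chromosome 18 with 15 or more tiles, the largest median change was 39.9 points at 47000001 to 48000000 of chromosome 5, from 49.3% to 90%, where 14 of 15 tiles rose. It was 38.9 points at 76000001 to 77000000 of chromosome 3, with 14 of 15 tiles rising, and 34.2 points at 101000001 to 102000000 of chromosome 8, with 13 of 17. Against the 75.5% of all tested tiles that rose, the last of these counts was at the background. The smallest was 6.95 points at 56000001 to 57000000 of chromosome 6, where 8 of 25 tiles were CpG-dense, while its tiles of 3 to 9 CpGs had a median change of 25.8 points, from 51.3% to 84.9%. The next smallest were 8.04 points at 120000001 to 121000000 and 13.9 points at 65000001 to 66000000, both on chromosome 13, with 5 and 2 CpG-dense tiles. Their tiles of 3 to 9 CpGs had median changes of 16.9 and 22.9 points, which were also below the median of 26.9 points over such medians of tile-poor windows.

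The highest *Rex1*-high median was 71.4% at 27000001 to 28000000 of chromosome 11, where 22 tiles without a CpG-dense one had a *Rex1*-low median of 88.5%. It was followed by 69.8% at 92000001 to 93000000 of chromosome 14 and 68.9% at 48000001 to 49000000 of chromosome 10. In these 3 windows 18 of 22, 12 of 19 and 15 of 19 tiles rose, shares that lie on both sides of the 75.5% of all tested tiles. The lowest *Rex1*-high median in this set was 31.6% at 55000001 to 56000000 of chromosome 8, with 50% in *Rex1*-low cells. The next were 38.2% at 83000001 to 84000000 and 38.4% at 76000001 to 77000000, both on chromosome 13. Tiles of 3 to 9 CpGs in these 2 windows had higher medians, 82.6% and 72.8% in *Rex1*-low cells, than all tiles together, at 65.7% and 53.3%.

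In 5 of the 598 tile-poor windows that had at least 5 tiles of 3 to 9 CpGs, the median of these tiles stayed under 70% in *Rex1*-low cells. The count was 0 of 555 in tile-rich windows. Between these sets it was 0 of 513 in windows of 26 to 49 tiles, 1 of 399 in windows of 50 to 74 and 1 of 326 in windows of 75 to 99. Medians in windows with more tiles vary less by sampling alone. The 5 tile-poor windows were singled out after their values were seen. The lowest was at 4000001 to 5000000 of chromosome 14, with medians of 17.4% and 27.3% over 7 such tiles. Its tiles were mixed rather than evenly low. In the *Rex1*-low library 5 of the 7 were under 60%, the lowest at 1.98%, and 2 were at 85.7% and 85.9%. Of the latter, the tile at 4092501 to 4095000 of chromosome 14 rose from 32.9% to 85.9%, while the tile at 4600001 to 4602500 stood at 35.1% and 34.5%. The window had 41.7 calls per CpG in *Rex1*-high cells against 25.2 over all tile-poor windows, and whether its sequence is present in several copies was not tested.

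The other windows of this kind were mixed as well. At 66000001 to 67000000 of chromosome 13 the medians were 36.3% and 48.7% over 8 tiles, with *Rex1*-low levels from 10.1% to 90.9%. This window also had many calls, 39.9 per CpG in *Rex1*-high cells. At 55000001 to 56000000 of chromosome 8, 13 tiles had medians of 36.7% and 51.8%, and 7 of them were under 60% in *Rex1*-low cells while 5 were at or above 80%. Low tiles lay next to each other there, as at 55807501 to 55810000 of chromosome 8 with 15.3% and 16.7% and at 55810001 to 55812500 with 19.4% and 20.2%. The windows on both sides of it had *Rex1*-low medians of 84.2% and 90.7% for such tiles, and those beside the chromosome 13 window 79.5% and 80%. The window before the lowest one, at the start of chromosome 14, was also low, at 36.2% with 2 tested tiles, and the window after it was at 79.0% with 1 tested tile. The remaining windows were at 43000001 to 44000000 of chromosome 14, with 33.5% and 61.6% between windows at 73.8% and 80.3%, and at 40000001 to 41000000 of chromosome 8, with 48.5% and 69.1% between windows at 87.4% and 87.8%. In each of the 5 windows, 2 or more tiles of 3 to 9 CpGs were at or above 80% in *Rex1*-low cells, so that none was evenly low.

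Intermediate levels that persisted in both states were uncommon. Among the 9200 tiles with 3 to 9 CpGs in tile-poor windows, 491 (5.34%) lay between 20% and 60% in both libraries. In tile-rich windows 7.52% did. Tiles of this CpG number under 20% in both libraries were rare in either set, with 33 of 9200 (0.359%) and 309 of 57692 (0.536%). A change from under 20% to at least 50% was seen in 10 of these tiles in tile-poor windows (0.109%) and in 81 in tile-rich windows (0.140%). At or above 80% in *Rex1*-low cells were 76.1% of these tiles in tile-poor windows and 70.1% in tile-rich windows. These shares were not weighted, and tiles of 3 CpGs, the most methylated class, were more frequent in tile-poor windows. Weighted over all CpG classes, 72.2% of tiles in tile-poor and 68.5% in tile-rich windows were at or above 80% in *Rex1*-low cells.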

How the data were processed

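RRBS of *Rex1*-high and *Rex1*-low cells was deposited by the authors as 1 file per library, with a row per measured cytosine that holds methylated calls over all calls and a score of 1000 times their ratio. Only the calls entered the calculations. The submitters' processing notes name Bismark 0.7 and mm9. Positions are 1-based in mm9. Rows of 1 call are present, so the minimum of 5 reads from the study's methods was applied here, to each row. The level of a CpG is the mean over its 1 or 2 kept rows, and that of a tile the mean over CpGs. Fisher's exact test and Benjamini-Hochberg adjustment covered all tested tiles of the autosomes and chromosome X. The tests were checked on simulated data with independent calls, which hold neither reads that cover several CpGs nor spread between libraries. Named tiles had 10 or more CpGs and 100 or more calls per library (the 5 largest rises, largest falls, and highest *Rex1*-high levels) or the most CpGs, and named windows at least 15 tiles (the 3 highest and lowest changes and *Rex1*-high levels) or the 3 longest runs. No fall met this rule. Chromosome 18 was not used for names. The regions, lists and rules were chosen with earlier results of these data known. Calculations ran in Python 3.11.15 with SciPy 1.17.1, numba 0.67.0, pandas 2.3.3 and NumPy 2.4.6, and figures in matplotlib 3.10.9.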

Additional observations from a re-analysis of the deposited data

Results flagged for a closer look

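Chromosome X was left out of the comparison of tile-poor and tile-rich windows, and its tiles carried a signal of the same direction. Under the same count, 104 of its 162 windows held 5 to 25 tested tiles, with 1549 tiles, and 2 windows held 100 or more. The median change of these tiles was 24.8 points, from 57.1% in the *Rex1*-high to 86.1% in the *Rex1*-low library, against 25.8 points in autosomal tile-poor windows of like CpG number. By Fisher's exact test 1039 of them (67.1%) rose and 3 fell, against 77.4% rising on the autosomes at like CpG number. Calls in *Rex1*-low cells over those in *Rex1*-high cells came to 0.780 on chromosome X and 0.962 on the autosomes, and its part in the share of calls was not tested.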

How the results depend on the processing

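No paired analysis was possible because each state has 1 library. The levels, differences, counts, shares and r were recomputed under 16 other settings, under 2 more chosen after seeing the data (windows chosen by listed CpGs, and tiles of 3 to 9 CpGs only) and without each autosome, which gave 436 values, since not every setting applies to every result. The median levels of tile-poor windows ranged from 54.2% to 59.1% and from 83.9% to 90.2% over the settings. Their differences from tile-rich windows kept their sign. They were -2.44 to -0.77 points in *Rex1*-high cells, 0.51 to 2.10 in *Rex1*-low cells and 0.99 to 4.36 for the change. The size of these differences thus depended strongly on the settings. Leaving out an autosome gave 2.36 to 2.56 for the change. The cause of these shifts was not tested, and in some settings fewer tiles or windows entered. Rising tiles were 3806 with 10 calls per row, 2721 with 5 CpGs per tile, 4953 in windows of 10 to 20 tiles and 4427 in runs of 3 or more windows. Falling tiles were 10 with the median of CpG fractions, 2 with rows summed first, without CpGs whose rows disagree, in windows of 10 to 20 tiles and in runs, 1 with 10 calls, with 5 CpGs and with a change of 20 points, and 0 of the thinned tiles. Thinning used the calls summed over the rows of a CpG. The share of rising tiles was 79.1% with 10 calls, 76.3% with rows summed first, 79.2% with levels from summed calls, 76.5% with the median of fractions, 76.7% without CpGs whose rows disagree, 69.5% after thinning, 81.7% by the Cochran-Mantel-Haenszel test, 66.7% with a change of 20 points, 79.0% with windows chosen by listed CpGs and 80.7% in tiles of 3 to 9 CpGs. Its difference from tile-rich windows, -0.62 points, became -2.82 with 5 CpGs, 0.73 with the median of fractions and 0.45 by the stratified test. It was 2.04 with weights on *Rex1*-high depth, 5.71 with a change of 20 points and 0.034 with windows chosen by listed CpGs. The r of adjacent windows became -0.015 with 10 calls for the *Rex1*-high level, and 0.197 with rows summed first and -0.010 in windows of 10 to 20 tiles for the change. Single tiles are limited by depth, with 83 and 60 calls at the median.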
